A study of Mus musculus with 24 samples.

Results

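The 3 h to 6 h step of T cell activation in Aim2-/- CD4+ T cells was examined in 6 of the 24 RNA sequencing libraries of a time course. The members are the 3 libraries of Aim2-/- cells stimulated for 6 h and the 3 of the same mice stimulated for 3 h, chosen by the genotype, time and mouse number in the labels. CD4+ T cells came from the spleens of 3 Aim2-/- mice (numbered 1, 2 and 4) and 3 wild-type (WT) mice (labelled 1, 3 and 4), all of C57BL6 background, with ages and sexes not given in the labels. The cells were cultured without stimulation (0 h) or with antibodies to CD3 and CD28 for 3, 6 or 24 h, which gives 8 groups of 3 libraries. The study describes these mice as deficient in AIM2, so the genotype is not limited to T cells. Whether the WT mice were littermates is not given in the sources used here. Values below are listed in the order of mice 1, 2 and 4.

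Antibodies to CD3 and CD28 engage the T cell receptor and a costimulatory receptor. Activation is known to run in waves: immediate early transcription factors of the AP-1, EGR and NR4A families come first, cytokines and chemokines follow, and resting cells then build ribosomes, enzymes and chaperones before they copy their DNA and divide. Feedback inhibitors such as TNFAIP3 and the DUSP phosphatases limit the early signals. AIM2 is a cytosolic DNA sensor that forms an inflammasome with the adaptor ASC, encoded by Pycard. The comparison of 6 h with 3 h asks which transcripts rose and which fell over this step in cells that lack AIM2.

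Total gene counts of the 6 libraries lay between 19993612 and 21409678. A gene with 3 counts, taken as the floor of detection, corresponded to 0.129 to 0.144 CPM (counts relative to library size, with sizes scaled by the TMM method). Summed CPM of 8 CD4 T cell markers lay between 4412 and 4785, while those of 2 CD8 markers lay between 8.09 and 13.4. Markers of other spleen cells were present. The 15 B cell markers summed to 4551, 2722 and 4202 CPM at 3 h and to 5318, 3601 and 3421 CPM at 6 h. Over 15 myeloid markers the sums were 481, 249 and 320 CPM at 3 h and 540, 304 and 332 CPM at 6 h. The 9 basophil or mast cell markers summed to 221, 80.8 and 107 CPM at 3 h. At 6 h they summed to 230, 107 and 132 CPM. The 12 neutrophil markers summed to 303, 96.3 and 96.7 CPM at 3 h and 229, 63.5 and 75.2 CPM at 6 h. Erythroid markers summed to 347, 13.1 and 247 CPM at 3 h and 530, 24.6 and 243 CPM at 6 h. Of the 12 B cell and 15 myeloid markers tested, 1 and 2 passed the test between 3 h and 6 h. Of 9 basophil or mast cell, 10 neutrophil and 7 erythroid markers tested, 2, 1 and 1 passed. Of all tested genes 35.5% passed. The part of these cells in the results was not tested. In bulk RNA, fewer cells of a type and less RNA per cell cannot be told apart.

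Aim2 itself was checked first. Aim2, on chromosome 1 (positions 173350879 to 173466040, GRCm38), was read at 14.6, 14.9 and 15.1 CPM at 3 h and at 11.4, 10.7 and 8.18 CPM at 6 h in the Aim2-/- mice. At 3 h Aim2 stood at 50.7 CPM in WT 3 and at 52.3 CPM in WT 4. In WT 1 it stood at 17.0 CPM, which lies near the Aim2-/- mice and goes against that label, so results of the WT group are given with it and, for counts, medians and tests, also without it or by mouse. Residual Aim2 reads in Aim2-/- cells fell by 0.56 ± 0.18 (SE) on the log2 scale from 3 h to 6 h (adjusted p = 0.0168, edgeR quasi-likelihood F test), and all 3 libraries of 6 h lay below those of 3 h. The call was lost without mouse 2 (adjusted p = 0.0662) or without mouse 4 (adjusted p = 0.177).

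Of 15325 genes tested in Aim2-/- cells, 5438 (35.5%) differed between 6 h and 3 h at an adjusted p under 0.05. Of all tested genes, 3065 (20.0%) were higher at 6 h and 2373 (15.5%) were lower. Counts of calls in the gene lists below are to be read against these shares. Most changes were small: 452 genes (2.95%) rose and 338 (2.21%) fell by more than 1 on the log2 scale, and the median called rise was 0.54. The median change over all tested genes was 0.05. Among the called genes, 5402 moved in 1 direction in 3 of 3 mice, and in 3880 the libraries of 3 h and 6 h did not overlap in CPM. Of all 15325 tested genes, called or not, the libraries did not overlap in 4954. Direction and separation come from the same values as the calls and are no further support for them. The share of calls that were rises was 56.4% with TMM factors, 48.9% with RLE size factors and 46.4% without a filter on low counts.

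**Figure D1:**
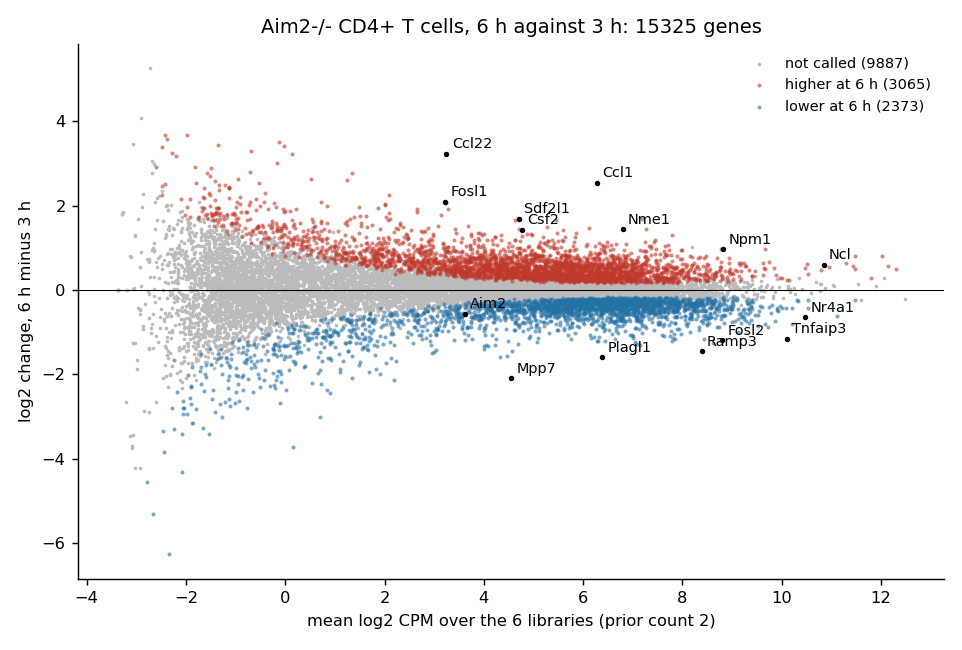
Each point is 1 of 15325 genes in Aim2-/- cells, with its mean log2 CPM over the 6 libraries on the x axis and its log2 change from 3 h to 6 h on the y axis. Red points are the 3065 genes called higher at 6 h, blue points the 2373 called lower, and black points are genes named in the text, from Ccl22 at 3.24 to Mpp7 at -2.09.

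Chemokine genes included the largest rise named. Ccl22, which encodes a ligand of CCR4, had 6.58, 0.780 and 4.71 CPM at 3 h and 64.2, 10.6 and 37.9 CPM at 6 h. Its change was 3.24 ± 0.22 on the log2 scale (9.42-fold, adjusted p = 6.3e-09), and each mouse rose although mouse 2 remained well below the others at both times. Ccl1, a ligand of CCR8, rose from 30.7, 19.3 and 53.3 CPM to 263, 108 and 247 CPM. The groups did not overlap, and the change was 2.54 ± 0.28 (5.83-fold, adjusted p = 1.2e-06), with an adjusted p of 0.101 in limma-voom. Ccl17, the other CCR4 ligand, rose by 2.60 from low levels of 0.550 to 1.85 CPM. The chemokine genes Ccl3 and Ccl4 rose by 1.68 and 1.30, and Xcl1, which attracts cross-presenting dendritic cells, rose by 1.45. In Ccl4 and Xcl1 the 2 groups overlapped in CPM although every mouse rose.

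Of 15 chemokine genes tested, 8 (53.3%) rose and 1 (6.67%) fell, with a median change of 0.68. The fall was that of Ccl5, a chemokine of memory and effector T cells, from 175, 171 and 224 CPM to 137, 126 and 153 CPM (log2 change -0.45, adjusted p = 0.018). The CXCR3 ligands did not pass the test: Cxcl9 had a change of 0.36 (adjusted p = 0.31) and Cxcl10 one of -0.41 (adjusted p = 0.18). With mouse 2 left out, 6 chemokines rose and none fell.

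Cytokine genes of T helper cells mostly rose. Il2, the T cell growth factor, was read at 18.0, 13.9 and 28.2 CPM at 3 h and at 48.7, 41.5 and 58.4 CPM at 6 h. All libraries of 6 h lay above those of 3 h, with a change of 1.34 ± 0.17 (2.52-fold, adjusted p = 5.3e-06). Csf2, which encodes GM-CSF, rose from 26.5, 10.5 and 16.4 CPM to 61.2, 34.7 and 42.4 CPM, a change of 1.44 ± 0.15 (adjusted p = 5.8e-07). Its groups did not overlap either. Il13, a type 2 cytokine, rose by 1.15, and Lta, which encodes lymphotoxin alpha, by 0.88. The call of Il13 was lost without mouse 2 (adjusted p = 0.0589), in limma-voom (0.0781) and with unpaired libraries (0.143).

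Of the cytokines that the study measured as proteins, Ifng, Il4 and Il17a rose and Il10 was not called. Ifng, the type 1 cytokine, rose from 63.5, 58.7 and 175 CPM to 136, 119 and 239 CPM, a change of 0.81 ± 0.22 (adjusted p = 0.0068). Il4, the type 2 cytokine, rose from 61.4, 29.9 and 60.2 CPM to 111, 59.2 and 77.1 CPM (0.72 ± 0.18, adjusted p = 0.0034). Il17a, the type 17 cytokine, rose from 7.74, 1.79 and 8.52 CPM to 20.2, 3.79 and 11.02 CPM (0.92 ± 0.25, adjusted p = 0.0071). In all 3 genes the groups overlapped in CPM while every mouse rose. Without mouse 2 neither Ifng nor Il4 was called, Il17a was not called without mouse 1 or in limma-voom, and none of the 3 was called with unpaired libraries.

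Il10, which encodes an anti-inflammatory cytokine, had 31.6, 23.1 and 27.6 CPM at 3 h and 29.8, 19.8 and 26.0 CPM at 6 h. It did not pass the test (-0.13 ± 0.20, adjusted p = 0.65). Over the 25 cytokine genes tested, 13 (52.0%) rose, 1 (4.0%) fell and 11 did not pass, with a median of 0.64. The fall was that of Tgfb1, by 0.44. The median change was 0.86 in mouse 1, 0.67 in mouse 2 and 0.36 in mouse 4. Without mouse 2 the number of rises was 8, and it was 5 in a fit that did not pair the libraries of a mouse.

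Among lineage transcription factors, Foxp3, the regulatory T cell factor, did not pass the test, with 326, 287 and 299 CPM at 3 h and 369, 309 and 260 CPM at 6 h (0.02 ± 0.14, adjusted p = 0.91). Tbx21 (0.01) and Gata3 (-0.14), the factors of type 1 and type 2 cells, did not pass either. Of 14 genes that the study names from a regulatory T cell signature, 5 rose and 2 fell. These are 35.7% and 14.3% of the list, against 20.0% and 15.5% of all tested genes. Capg, which encodes an actin-capping protein, rose by 0.86, and Itgae, which encodes integrin CD103, fell by 0.88 (not called with unpaired libraries, adjusted p = 0.241). The rises numbered 2 without mouse 2. This list was chosen by the study and its median of 0.16 turned to -0.02 after a correction for GC content and transcript length.

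**Figure D2:**
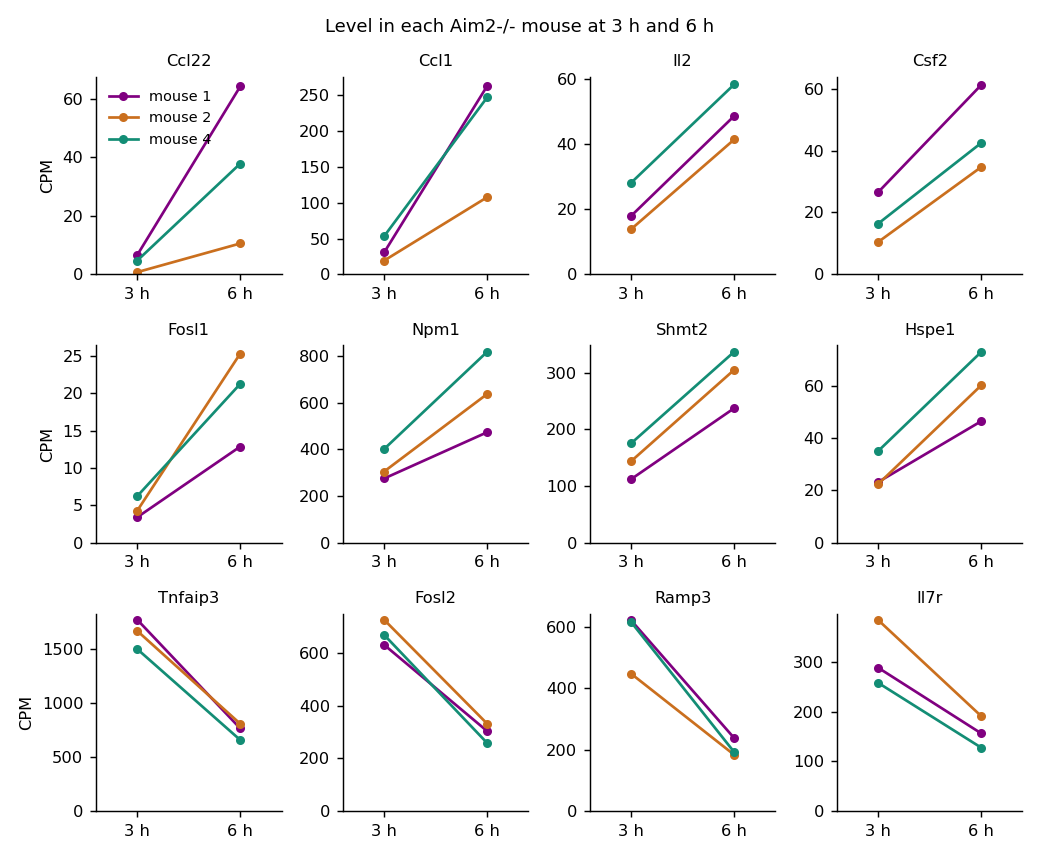
CPM of 12 genes at 3 h and 6 h, with 1 line for each Aim2-/- mouse and the y axis from 0. In the upper 8 panels all lines rise, Ccl22 from 0.780 to 6.58 CPM at 3 h to 10.6 to 64.2 CPM at 6 h, and in the lower 4 panels all lines fall.

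Immediate early transcription factors fell more often than they rose. Fosl2, an AP-1 subunit, was read at 631, 726 and 669 CPM at 3 h and at 303, 331 and 258 CPM at 6 h. No libraries overlapped, and the change was -1.19 ± 0.11 (adjusted p = 1.2e-07). Fosb, another AP-1 subunit, fell by 1.27. The 3 members of the orphan nuclear receptor family NR4A fell: Nr4a3 by 0.87, Nr4a2 by 0.85 and Nr4a1 by 0.64. Egr3, a T cell receptor-induced zinc finger factor, fell by 0.68, with the 2 groups overlapping. Nr4a1 was not called without mouse 4 (adjusted p = 0.0667), and Egr3 was not called without mouse 2 (0.0672) or without mouse 4 (0.131).

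Fosl1 moved the other way in this family. It had 3.40, 4.26 and 6.21 CPM at 3 h and 12.9, 25.3 and 21.3 CPM at 6 h, a rise of 2.09 ± 0.26 (4.27-fold, adjusted p = 4.8e-06). Over the 22 genes of the list, 11 fell, 3 rose and 8 did not pass, with a median of -0.23. The number of falls was 7 without mouse 4, and that of rises was 1 without mouse 2. The cells of 0 h held some of these transcripts at higher levels than those of 3 h: Fosl2 averaged 1563 CPM at 0 h and 676 CPM at 3 h, and Fosb 127 and 40.2 CPM. Nr4a1 averaged 1138 CPM at 0 h and 1812 CPM at 3 h.

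Feedback inhibitors also fell more often than they rose. Tnfaip3, which encodes the NF-kB inhibitor A20, fell from 1775, 1671 and 1502 CPM to 765, 808 and 658 CPM, a change of -1.15 ± 0.08 (adjusted p = 6.8e-09). Dusp1, a MAP kinase phosphatase, fell by 1.04, Rgs2, a regulator of G protein signalling, by 0.81, and Zc3h12a, which encodes the RNase Regnase-1, by 0.73. Of 40 inhibitors, 17 (42.5%) fell and 5 (12.5%) rose, with a median of -0.27. Spry1, an inhibitor of receptor tyrosine kinase signalling, rose by 1.18 from 96.0, 111 and 143 CPM to 221, 286 and 284 CPM. Rgs16, another regulator of G protein signalling, rose by 0.74 (not called with unpaired libraries, adjusted p = 0.101). The rises numbered 3 without mouse 2. The groups did not overlap in these 6 genes.

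The wider set of 35 activation transcription factors gave 13 falls (37.1%) and 5 rises (14.3%), with a median of -0.13. Stat3, the transducer of IL-6 family signals, fell by 0.86, and the NF-kB subunits Rel and Nfkb1 fell by 0.64 and 0.42. Batf, an AP-1 partner in effector differentiation, rose from 76.1, 74.3 and 75.4 CPM to 106, 105 and 113 CPM, a change of 0.52 ± 0.09 (adjusted p = 7.5e-05). The 3 mice nearly coincided at each time, and the change was 0.21 after the GC and length correction (adjusted p = 0.0873). Without mouse 2 or without mouse 4 the number of falls in this list was 7, and with unpaired libraries it was 6.

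Many genes of resting T cells fell. Ramp3, which encodes a partner of neuropeptide receptors, was read at 622, 447 and 616 CPM at 3 h and at 237, 183 and 192 CPM at 6 h, with a change of -1.45 ± 0.15 (adjusted p = 4.7e-07). Its mean was 1271 CPM at 0 h and 9.90 CPM at 24 h. Il7r, the receptor of the survival cytokine IL-7, fell by 0.97 from 288, 385 and 258 CPM to 156, 191 and 127 CPM. Of 39 such genes, 18 (46.2%) fell, 3 (7.69%) rose and 18 did not pass, with a median of -0.28. Klf13 and Klf3, Kruppel-like factors, fell by 0.78 and 0.67. Slfn2, a gene of the Schlafen family needed for quiescence, rose by 0.37, and by 0.14 after the GC and length correction (adjusted p = 0.107). Without mouse 2 the falls numbered 10, and with unpaired libraries 8.

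Outside the lists, the largest falls included genes with several known roles. Mpp7, which encodes a scaffold protein of cell polarity, fell from 57.2, 47.4 and 41.4 CPM to 13.8, 12.1 and 8.42 CPM, the largest fall named (-2.09 ± 0.16, adjusted p = 3e-08). Plagl1, a zinc finger factor that restrains growth, fell by 1.60, and Pak1, a kinase downstream of Rac and Cdc42, by 1.56. Abca1, the cholesterol efflux pump, fell by 1.46. Atp2b4, a calcium pump of the plasma membrane, fell by 1.30, Dgat1, an enzyme of triglyceride synthesis, by 1.21, and the nuclear noncoding RNA Malat1 by 1.24, from 576, 737 and 521 CPM to 277, 265 and 230 CPM. In each of these genes the 3 h and 6 h libraries did not overlap, as the rule that named them required.

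Several abundant transcripts outside the cytokines also rose. Nme1, a nucleoside diphosphate kinase, rose from 49.9, 55.1 and 109 CPM to 147, 168 and 253 CPM (1.45 ± 0.16, adjusted p = 1.1e-06). Acot7, an acyl-CoA thioesterase, rose by 1.48, Banf1, which encodes a chromatin-binding protein of the nuclear envelope, by 1.15, and Snd1, a nuclease-domain protein of RNA metabolism, by 1.13. At lower levels Crabp2, a retinoic acid binding protein, rose by 2.07 (not called in limma-voom, adjusted p = 0.105), Npas2, a circadian transcription factor, by 1.91, and Tnfrsf8, which encodes the activation receptor CD30, by 1.93.

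Most genes of ribosome production rose. Npm1, which encodes the nucleolar protein nucleophosmin, rose from 275, 305 and 402 CPM to 474, 638 and 819 CPM, a change of 0.97 ± 0.10 (adjusted p = 8.4e-07). The libraries did not overlap. Ncl, which encodes nucleolin, rose by 0.60 from 1251, 1607 and 1675 CPM to 1705, 2720.4 and 2522 CPM. Components of box H/ACA particles, which guide pseudouridylation of ribosomal RNA, were among the largest rises of the list: Nop10 by 1.13, Nhp2 by 1.08 and Gar1 by 1.08. Of 101 genes of ribosome biogenesis and RNA polymerase I tested, 60 rose, 2 fell and 39 did not pass, with a median of 0.33. Without mouse 2 the rises numbered 41, and with unpaired libraries 37.

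Of 46 translation initiation and elongation factors, 23 rose and none fell with TMM factors, while 3 fell with RLE size factors. Eif5a, the factor that carries hypusine, rose by 0.97 from 484, 547 and 726 CPM to 885, 1292 and 1266 CPM. Eef1e1 rose by 0.96, while the abundant elongation factors Eef1a1 (0.13) and Eef2 (-0.24) did not pass. Of the 46 factors, 5 fell after the GC and length correction. Of 20 aminoacyl-tRNA synthetases, which charge tRNAs, 13 rose, led by Wars and Farsb with 0.78 each.

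The E-box hexamer CACGTG, the letters bound by MYC and related factors, was searched on either strand in RefSeq promoter windows of GRCm38.p6 (250 bases before to 50 after a start). It was held by 12.9% of the 2911 windows of called rises, 8.97% of the 2230 windows of called falls and 9.80% of all 13483 windows of tested genes. In the windows of aminoacyl-tRNA synthetases the share was 33.3% (4 of 12), in those of translation factors 26.2% (11 of 42) and in those of ribosome biogenesis genes 18.2% (18 of 99). High shares were not particular to translation: sterol and fatty acid synthesis had 21.9% (7 of 32) and DNA replication 17.0% (9 of 53). In lists where falls outnumbered rises the share ranged from 0.0% (0 of 21, interferon gamma-induced genes) to 14.0% (7 of 50, feedback inhibitors). Immediate early factors, which mostly fell, had 13.0% (3 of 23). The proteasome (9.30%), chaperone (9.76%) and nuclear oxidative phosphorylation lists (8.82%), where most members rose, did not exceed the share of all windows. Among changes over 1 on the log2 scale the share was 10.5% for rises and 11.0% for falls. Windows of 1 gene can overlap, and a match is not a bound site. Windows of 5 called rises from the synthetase, translation factor and ribosome biogenesis lists are shown to place the motif, with the hexamer in capitals.
Eif5a (chr11:69920791-69920820, minus strand, hexamer 178 bases before a listed start): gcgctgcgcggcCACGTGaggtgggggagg
Rpf2 (chr10:40246988-40247017, minus strand, 26 bases before): aagtaatcggtaCACGTGcattcgctaagg
Farsb (chr1:78488919-78488948, minus strand, 39 bases before): ttagacaggcatCACGTGagacagcccaag
Eif4e (chr3:138527028-138527057, plus strand, 228 bases before): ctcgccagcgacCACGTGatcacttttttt
Nop2 (chr6:125131811-125131840, plus strand, 60 bases before): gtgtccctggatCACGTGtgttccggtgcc
Rpf2, a factor of 5S particle assembly, rose by 0.79, Eif4e, the cap-binding protein, by 0.53 and Nop2, a methyltransferase of ribosomal RNA, by 0.49.

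Most genes of serine and one-carbon metabolism rose. Shmt2, the mitochondrial serine hydroxymethyltransferase, rose from 112, 144 and 175 CPM to 237, 305 and 337 CPM, a change of 1.03 ± 0.10 (adjusted p = 2.2e-07). Shmt1, its cytosolic counterpart, rose by 1.13, Mthfd1 by 1.07 and Phgdh, the first enzyme of serine synthesis, by 0.96. Of 32 genes of serine, one-carbon and nucleotide synthesis, 22 rose and 1 fell (median 0.50). Of 33 sterol and fatty acid synthesis genes, 13 rose and 1 fell (3 fell with RLE size factors), with Acaca, the acetyl-CoA carboxylase, rising by 1.02.

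Of 25 genes of glucose uptake and glycolysis, 10 rose, 4 fell and 11 did not pass. Falls made up 16.0% of the list, near the 15.5% of all tested genes, and rises 40.0% against 20.0%. The falls numbered 2 without mouse 2, 1 without mouse 4 and 1 with unpaired libraries. Hk2, the inducible hexokinase, rose by 0.95, Pgk1 by 1.26, Aldoa by 0.63, Pkm by 0.55 and Ldha by 0.46. Slc16a3, a lactate exporter, fell by 0.71. Polyamine genes were split: Srm, the spermidine synthase, rose by 0.94, while Odc1, the ornithine decarboxylase that opens the pathway, fell from 920, 646 and 879 CPM to 507, 466 and 476 CPM (-0.74 ± 0.10, adjusted p = 8.1e-06). Of 16 amino acid transporters, 4 rose and 2 fell, with a median of -0.08 that turned to 0.07 after the GC and length correction and to 0.14 without mouse 4. Both shares lay near those of all tested genes, with rises a little above 20.0% and falls a little below 15.5%. The rises numbered 2 without mouse 2 or without mouse 4, and 0 with unpaired libraries. Slc1a5, a glutamine transporter, rose by 0.45, a call lost without mouse 2 (adjusted p = 0.0789) and with unpaired libraries (0.0614).

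Chaperones rose broadly. Hspe1, the mitochondrial co-chaperonin, rose from 23.2, 22.4 and 35.1 CPM to 46.5, 60.3 and 73.0 CPM (1.16 ± 0.14, adjusted p = 2.8e-06). Its partner Hspd1 rose by 0.96. Sdf2l1, an endoplasmic reticulum protein of the stress response, rose by 1.69, Pdia6, a disulfide isomerase, by 0.96, and Hsp90ab1, a cytosolic chaperone, by 0.56. Of 44 genes, 37 rose and 2 fell, with a median of 0.47. In the leave-one-out fits of the Aim2-/- mice the rises numbered 37, 33 and 34.

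Proteasome and respiratory chain genes rose in most members, by small amounts. Of 47 proteasome genes, 42 rose and none fell (median 0.37), led by the assembly factors Psmg4 (1.00), Pomp (0.99) and Psmg1 (0.90). Of 76 nuclear genes of oxidative phosphorylation, 63 rose and 1 fell (median 0.47), led by the complex I subunits Ndufa12 (1.19) and Ndufc2 (0.95). After correction for GC content and transcript length the rises numbered 27 and 41, with medians of 0.25 in both lists. Of 81 cytosolic ribosomal protein genes, 26 rose and 1 fell (median 0.21), and after that correction 10 rose and 9 fell with a median of -0.04. Without mouse 2 the rises of this list numbered 15, and with unpaired libraries 13. Many ribosomal protein genes have near-identical copies, so their counts are uncertain.

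Mitochondrially encoded transcripts had 7 of 13 genes tested, and the other 6 held 1 count or none in these libraries. All 7 were called higher, with changes from 0.48 (mt-Nd4) to 0.77 (mt-Nd6). mt-Co1, a subunit of complex IV, was read at 3497, 2971 and 4878 CPM at 3 h and at 6272, 4332 and 6359 CPM at 6 h. The 2 groups overlapped in each of the 7 genes, every mouse rose, and none of the 7 was called when the libraries of a mouse were not paired. mt-Nd6 was not called without mouse 1 either (adjusted p = 0.0601). These genes share 1 transcription unit per strand and are not independent.

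**Figure D3:**
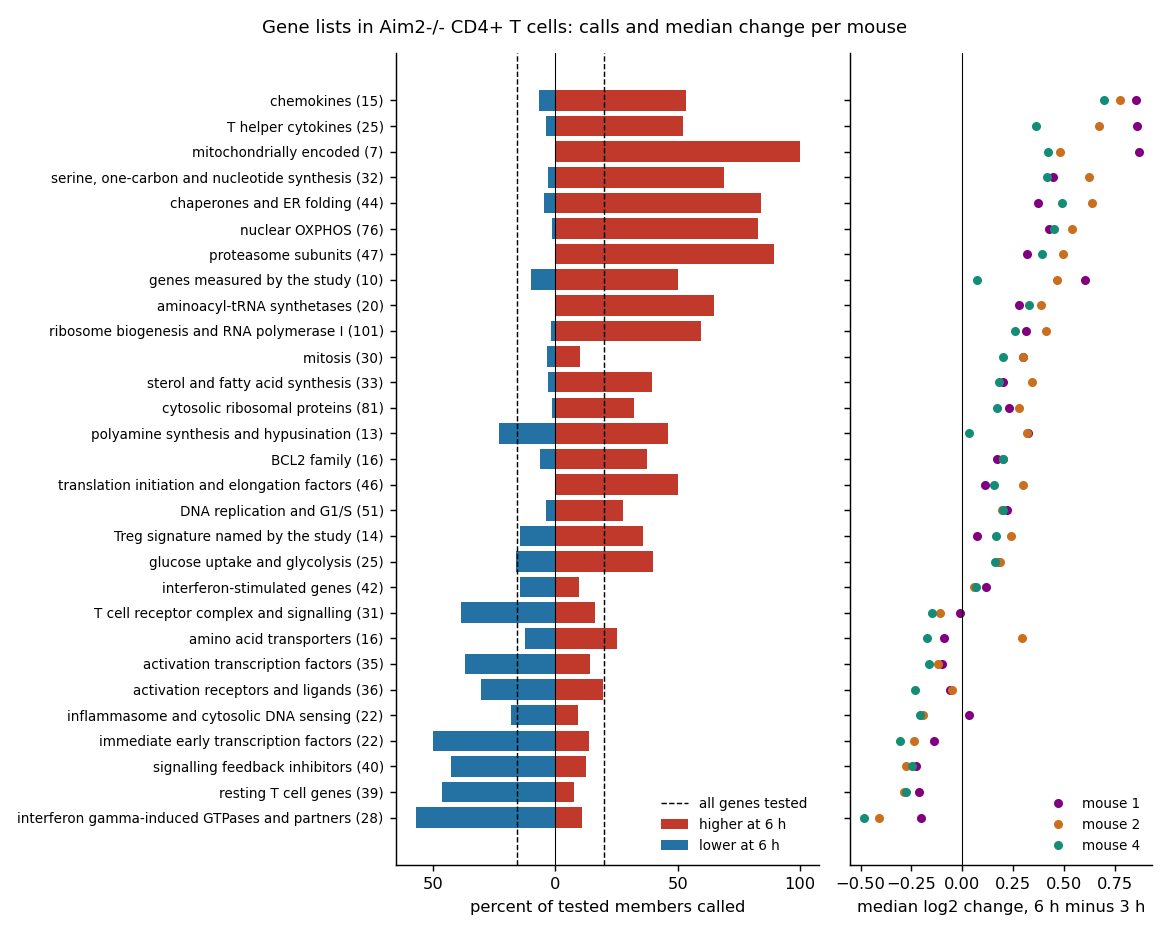
Left, the percent of tested members of each gene list called higher (red) or lower (blue) at 6 h in Aim2-/- cells, with dashed lines at 20.0% and 15.5% for all tested genes and the number tested in parentheses. Right, the median log2 change of each list in each mouse, from about 0.70 to 0.86 for chemokines down to -0.48 to -0.20 for interferon gamma-induced GTPases.

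Most genes induced by interferon gamma fell. Gbp4, a guanylate-binding GTPase of cell-autonomous defence, fell from 606, 1101 and 938 CPM to 451, 597 and 533 CPM, a change of -0.72 ± 0.15 (adjusted p = 7.8e-04). No libraries overlapped. Gbp11 fell by 0.91, Gbp7 by 0.78 and the transcription factor Irf1 by 0.43. Gbp2 did not pass the test (0.03), nor did Igtp (-0.20, adjusted p = 0.074). Of 28 genes, 16 fell and 3 rose, with a median of -0.39. The rises were those of Ciita, the activator of class II genes, by 1.03, of the immunoproteasome gene Psmb8 by 0.37 and of its partner Psmb9 by 0.22. The call of Psmb8 was lost after the GC and length correction (adjusted p = 0.169), and that of Ciita without mouse 2 (0.104) and with unpaired libraries (0.178). Ifng itself rose over the same interval, as given above. With mouse 2 left out the falls numbered 10 and the rises 1.

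The palindrome TTCNNNGAA, which STAT factors bind, was held by 42.9% (9 of 21) of the promoter windows of this list and by 6.94% of all tested windows. Its share was 6.77% in called rises and 7.00% in called falls. Irf1 and Gbp7 show it upstream of their starts, with the motif in capitals.
Irf1 (chr11:53769914-53769942, plus strand, 90 bases before the start): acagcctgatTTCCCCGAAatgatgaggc
Gbp7 (chr3:142530220-142530248, plus strand, 106 bases before the start): tccgttttctTTCCAGGAAaagcagaagc
AP-1 sites (TGACTCA) were held by 3.68% of windows of rises, 3.81% of windows of falls and 3.81% of all windows. CRE sites (TGACGTCA) were held by 2.65%, 3.50% and 2.97%. Among gene lists the AP-1 share ranged from 0.0% (0 of 99, ribosome biogenesis) to 20.0% (2 of 10, regulatory T cell signature). It was 19.0% (4 of 21) in the interferon gamma list, 18.2% (2 of 11) in chemokines and 16.7% (4 of 24) in cytokines.

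The 42 genes of the type I interferon list behaved differently from each other. Bst2, which encodes tetherin, rose by 1.04, and Ifi44 by 0.88, while Parp14 fell by 0.60 and Stat2 by 0.39. Stat2 was not called without mouse 2 (adjusted p = 0.0992) or without mouse 4 (0.126), and with unpaired libraries neither Stat2 (0.141) nor Ifi44 (0.156) was called. In all, 4 rose, 6 fell and 32 did not pass, with a median of 0.09 that turned to -0.03 after the GC and length correction. The falls numbered 3 without mouse 2, 2 without mouse 4 and 1 with unpaired libraries, and the rises 7 without the mouse labelled WT 1. The shares of 9.52% and 14.3% are at or below those of all genes.

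Inflammasome and DNA-sensing genes gave few calls. Pycard, the adaptor gene, rose from 36.4, 25.6 and 28.5 CPM to 51.8, 40.7 and 49.4 CPM, a change of 0.65 ± 0.10 (adjusted p = 3.1e-05), and the groups did not overlap. Nlrp1b rose by 0.72 (adjusted p = 0.048), a call that most of the alternative settings lost. Il1b, the inflammasome substrate, fell from low levels of 2.02 to 7.14 CPM by 1.02, and Nlrc4 and Ifi203 fell by 0.66 and 0.54. Gsdmd (0.06) and Tmem173, which encodes STING (-0.17), did not pass. Of 22 genes, 2 rose and 4 fell, Aim2 included. These are 9.09% and 18.2% of the list, against 20.0% and 15.5% of all tested genes. Without mouse 2, without mouse 4 or with unpaired libraries no fall was called. Il1b was not called without mouse 1 either (adjusted p = 0.0767).

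Receptor and signalling genes were split. Of 36 activation receptors and ligands, 7 rose and 11 fell, and the falls numbered 7 without mouse 2, 3 without mouse 4 and 5 with unpaired libraries. As analysed, rises made up 19.4% and falls 30.6% of the list, against 20.0% and 15.5% of all tested genes. Il12rb1, a subunit of the IL-12 receptor, rose by 1.26, Tfrc, the transferrin receptor, by 0.69, Tnfrsf9, which encodes 4-1BB, by 0.53, and Il2ra, the high-affinity chain of the IL-2 receptor, by 0.47. Il18r1 fell by 0.74, Tnfrsf1b, a receptor of TNF, by 0.78 and Il2rb by 0.28. Without mouse 2 neither Il2ra (adjusted p = 0.0968) nor Il2rb (0.0508) was called, and Il2rb was not called without mouse 4 (0.217) or with unpaired libraries (0.0984). Of 31 genes of the T cell receptor complex and its signalling, 5 rose and 12 fell, with 3 rises without mouse 2 and 7 falls with unpaired libraries. Here rises made up 16.1%, below the share of all tested genes, and falls 38.7%. The adaptor gene Grap2 fell by 0.80 and Ptprc, which encodes CD45, by 0.61, while Trbc2, a constant segment of the receptor beta chain, rose by 0.53.

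Some genes of the G1 phase rose. Cdk4, the G1 kinase, rose from 133, 141 and 162 CPM to 236, 324 and 355 CPM (1.06 ± 0.10, adjusted p = 1.9e-07), Ccnd3 by 0.71 and Ccnd2, its cyclin partners, by 0.49. The call of Ccnd2 was lost without mouse 2 (adjusted p = 0.0547) and with unpaired libraries (0.0832). Of 51 genes of DNA replication and the entry to S phase, 14 rose and 2 fell, with a median of 0.19. Rises made up 27.5% of the list, against 20.0% of all tested genes. The rises numbered 7 without mouse 2, 9 without mouse 4 and 5 with unpaired libraries. Of 30 mitosis genes, 3 rose, 1 fell and 26 did not pass, with medians of 0.30, 0.30 and 0.20 in the 3 mice. The mitosis rises numbered 0 with unpaired libraries, 10 without a filter on low counts and 14 in a fit of the 6 libraries alone. Mki67, a marker of cycling cells, averaged 134 CPM at 3 h, 164 CPM at 6 h and 742 CPM at 24 h, and its change of 0.28 did not pass (adjusted p = 0.42).

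Of 16 genes of the BCL2 family, 6 (37.5%) rose and 1 (6.25%) fell, with 3 rises after the GC and length correction. Bcl2l1, which encodes the survival protein BCL-XL, rose by 0.64, and the death effectors Bax and Bid rose by 0.56 and 0.62, with 0.13 for Bax after the GC and length correction (adjusted p = 0.186). Bcl2l11, which encodes the death inducer BIM, fell by 0.35. Mcl1 (-0.03) and Bcl2 (0.13) did not pass.

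**Figure D4:**
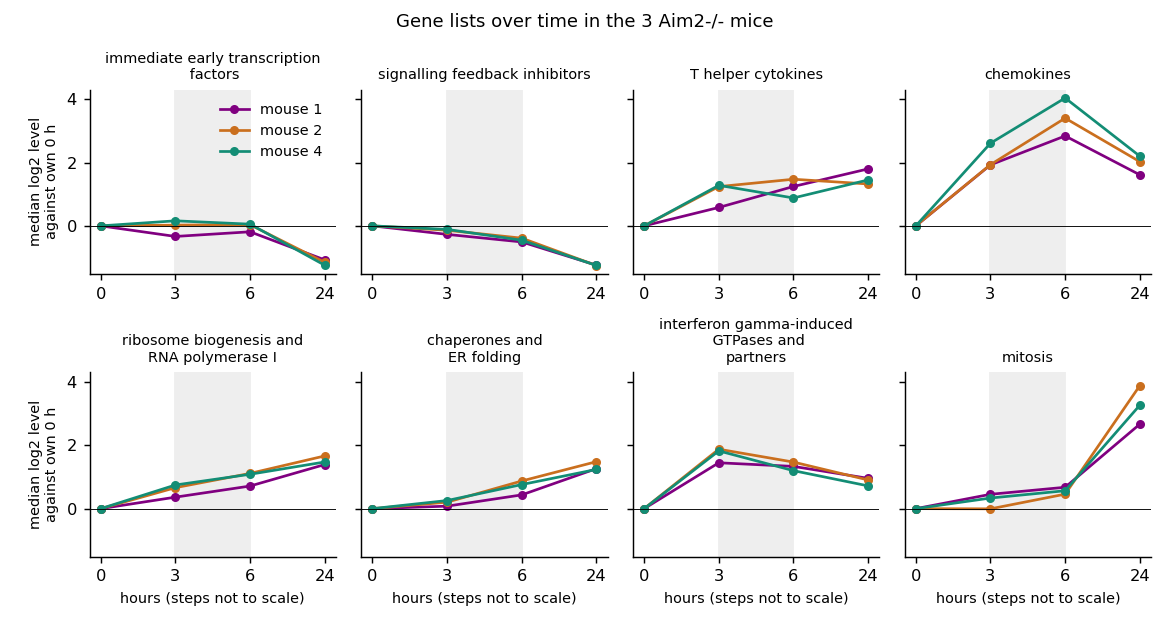
Median log2 level of the members of 8 gene lists against the 0 h library of the same mouse, at 0, 3, 6 and 24 h, with 1 line per Aim2-/- mouse and the step from 3 h to 6 h shaded. Chemokines reached 2.84, 3.40 and 4.04 at 6 h, interferon gamma-induced GTPases were highest at 3 h in each mouse, and mitosis genes rose mainly after 6 h.

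The place of this step in the time course differed between groups. Chemokines had a median of 1.93, 1.93 and 2.61 above 0 h at 3 h, of 2.84, 3.40 and 4.04 at 6 h, and of 1.61, 2.03 and 2.20 at 24 h. Ribosome biogenesis genes went from 0.36, 0.66 and 0.75 at 3 h to 0.71, 1.11 and 1.09 at 6 h and to 1.39, 1.66 and 1.47 at 24 h. Interferon gamma-induced GTPases stood at 1.45, 1.88 and 1.82 at 3 h and at 0.96, 0.91 and 0.72 at 24 h. These values share the 3 h and 6 h libraries with the comparison above and carry no test of their own.

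Rises and falls differed in transcript structure. The longest annotated transcript had a median of 2323 bases and 5 exons in called rises, 4564 bases and 12 exons in called falls, and 2998 bases and 6 exons in all tested genes. GC content differed less, with medians of 50.3%, 48.6% and 49.6%. Genes were ranked by transcript length and split into 3 sets of 5107, 5107 and 5104. In the shortest set 27.4% were called higher and 5.25% lower, while in the longest set 11.2% were higher and 28.8% lower. The median change of the shortest set was 0.21, 0.23 and 0.21 in the 3 Aim2-/- mice and that of the longest set -0.10, -0.13 and -0.12. In the mice labelled WT 3 and WT 4 the same medians were 0.11 and 0.14 for the shortest set and -0.09 and -0.13 for the longest, and in the mouse labelled WT 1 they were -0.04 and 0.02. The part of this trend in the gene lists was not tested beyond the corrected counts given above, which left 4906 genes called in all, 49.7% of them higher.

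**Figure D5:**
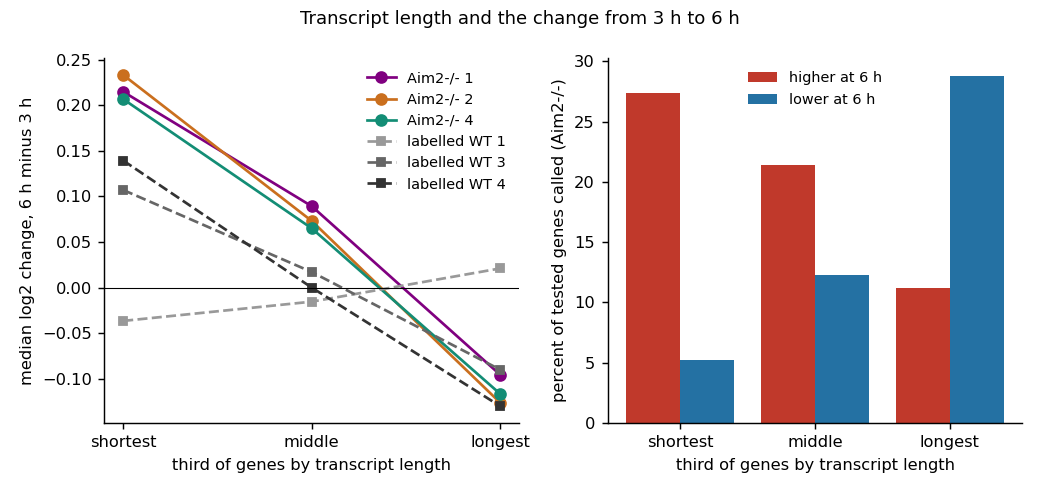
Left, median log2 change from 3 h to 6 h in 3 sets of genes ranked by transcript length, for each Aim2-/- mouse (circles) and each mouse labelled WT (squares). Right, percent of tested genes called in Aim2-/- cells, with 27.4% higher and 5.25% lower in the shortest set against 11.2% higher and 28.8% lower in the longest.

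The same step was then compared with that of the WT mice, to ask whether it differs in cells that lack AIM2. In WT cells 5537 genes (36.1%) were called, 2879 (18.8%) higher and 2658 (17.3%) lower, and 4947 were called without the mouse labelled WT 1. Of the calls in Aim2-/- cells, 3569 were also called in WT cells (65.6% of the Aim2-/- calls and 64.5% of the WT calls), 3554 of them in the same direction. The 2 comparisons share no libraries, but both come from 1 fit with the same estimate of each gene's spread. Their calls are therefore not independent. Across genes the changes correlated with r = 0.574, where genes are not independent replicates. Without the mouse labelled WT 1, 3548 genes were called in both (64.4% of the Aim2-/- calls and 71.7% of the WT calls), 3544 in the same direction, and r was 0.515.

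No gene (0.0%) passed the test of the difference between genotypes by edgeR at an adjusted p under 0.05, while 2385 had an unadjusted p under 0.05. The smallest adjusted p was 0.0539, close to the threshold. DESeq2's Wald test called 379 genes and limma-voom 5, and edgeR called 60 genes with a minimum mean of 1 CPM and 589 with no filter on low counts. Without the mouse labelled WT 1 edgeR called 0.

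The genes with the smallest p in that test were Spen, Pycard, Usp31, Emc9, Gmfg and Batf. Pycard changed by 0.51, 0.67 and 0.79 in the Aim2-/- mice and by -0.21, 0.08 and -0.38 in the mice labelled WT 1, 3 and 4, a difference of 0.83 ± 0.14 (adjusted p = 0.0539). Batf changed by 0.47, 0.50 and 0.59 in Aim2-/- mice and by -0.21, -0.07 and -0.07 in WT mice (difference 0.64 ± 0.12, adjusted p = 0.0626). Spen, a transcriptional repressor, changed by -0.35, -0.54 and -0.54 against 0.30, 0.08 and 0.15 (difference -0.66 ± 0.11, adjusted p = 0.0539). In each of these 3 genes the mice of the 2 groups did not overlap, with or without the mouse labelled WT 1, and adjusted p was 0.243 without it. The genes were chosen by their p in this same test, so this separation is no further support for a difference. Pycard and Spen passed the threshold in limma-voom (adjusted p = 0.0374 for both), after the GC and length correction (0.0428 for both), in DESeq2, with either other filter on low counts, and without Aim2-/- mouse 1 or WT mouse 3. They missed it without Aim2-/- mouse 2 (0.103), Aim2-/- mouse 4 (0.252) or WT mouse 4 (0.114), with RLE size factors (0.0652 and 0.0635), with library totals and with unpaired libraries (0.475 and 0.507). For Batf the difference was 0.43 after that correction (adjusted p = 0.164).

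List counts were also set side by side for the genotypes. Ribosome biogenesis genes had 60 rises in Aim2-/- cells and 92 in WT cells (90 without the mouse labelled WT 1), with medians of 0.33 and 0.62 (0.65 without that mouse). By mouse the medians were 0.31, 0.41 and 0.26 in Aim2-/- mice and 0.55, 0.48 and 0.80 in WT mice. Chaperones had 37 and 38 rises, with medians of 0.47 and 0.77, and without the mouse labelled WT 1 the WT values were 38 and 0.81. The nuclear oxidative phosphorylation list had 63 and 52 rises, with medians of 0.47 and 0.34, and the WT value was 0.44 without the mouse labelled WT 1. Mitosis genes had medians of 0.30, 0.30 and 0.20 in Aim2-/- mice and of -0.08, -0.09 and -0.10 in WT mice. These list values are descriptions and were not tested between genotypes.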

How the data were processed

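Messenger RNA of splenic CD4+ T cells was sequenced from stranded libraries per the labels. The general methods of the study give immunomagnetic negative selection for such cells, while the sequencing shown in its figures is another experiment. Reads were mapped by the authors to GRCm38 using STAR, and they deposited raw read counts, 1 value per gene and library, for 54446 Ensembl identifiers in 24 libraries. Totals lay between 19715161 and 21627018. The strand setting of the counting is not given in the sources used here, so antisense genes, overlapping genes and near-identical copies are uncertain. The processing notes of the submitters also name DESeq2 and edgeR, without their role.

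Counts were tested with edgeR 4.0.16 in R 4.3.3 (quasi-likelihood F test, two-sided, TMM factors, filterByExpr with a minimum count of 10). All 24 libraries entered, with mouse as a block and time within genotype as terms, which left 12 residual degrees of freedom. The filter kept 15325 genes and left 16042 with a count untested. Contrasts were 6 h minus 3 h in each genotype, and their difference. Benjamini-Hochberg adjustment ran over all tested genes, and a called gene has an adjusted p under 0.05. A standard error is the log2 change divided by the root of F. CPM used TMM-scaled library sizes. The floor covers counting error only.

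The labels give 1 mouse number at every time, so the libraries of a mouse are paired. Deviations from the group means correlated at r = 0.527, 0.567 and 0.387 between the 3 h and 6 h libraries of mice 1, 2 and 4, and between -0.432 and -0.0993 for different mice. Centring on the mean of 3 libraries pushes the values for different mice down, so part of this contrast is arithmetic. The labels do not name separate litters or culture days.

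Symbols, positions and transcript features came from GENCODE release M21, which matched 54409 identifiers. The members and the 29 gene lists were chosen with earlier results of these data known, and the listed symbols Polr1f, Mars1, Mb21d1, Mnda and Ahsp had no match. Named genes follow a rule: the genes measured by the study, the 10 largest rises and falls at 10 CPM or more and the 8 largest at 100 CPM or more (called, moving 1 way in 3 of 3 mice, no overlap of groups, no clone names or receptor segments), up to 6 called and the 3 most abundant members of each list, and the 6 genes with the smallest p in the genotype difference. Alternatives were RLE size factors, library totals, 2 other filters, no block, DESeq2 1.42.0, limma-voom (limma 3.58.1), fewer libraries and each mouse left out. Offsets from each library's trend with GC content and transcript length were added after seeing the data. The scripts were tested on simulated counts. Some genes that the rule names are not reported here.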

Additional observations from a re-analysis of the deposited data

How the results depend on the processing

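For Aim2-/- cells the number of genes called between 3 h and 6 h was 5438 in the fit with the replicate block and 3571 with no replicate block, that is, when the libraries of a mouse were not paired. Leaving out 1 mouse at a time gave 3645 to 5510 calls, the lowest without Aim2-/- mouse 2. The WT count lay between 3520 and 5805 over mice left out, with 3520 without the mouse labelled WT 4. For the genotype difference, 0 genes were called as analysed (2385 at an unadjusted p under 0.05), 589 without a filter on low counts, 60 with a minimum mean of 1 CPM, 379 by DESeq2, 5 by limma-voom, 3 after the GC and length correction and 0 to 6 over mice left out. The cause of these differences was not tested. The fall of Aim2 was -0.56 with no replicate block and missed the threshold there (adjusted p = 0.506), and it lay between -0.67 and -0.41 over mice left out. After the GC and length correction 4 named genes changed sign: Cox4i1 (-0.0365) and Usp31 (0.0075) were then not called, while Eif4g2 (0.21) and Trac (-0.25), not called without it, were called. Of 218 named genes called, 151 kept their direction and their call under every alternative, and 165 when the fit with no block is left aside. Totals of 19993612 to 21409678 counts in the 6 libraries put the floor of 3 counts at 0.129 to 0.144 CPM, and with 3 mice per group a change that was not called is not shown to be absent.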
